A study of Homo sapiens with 15 samples.

Results

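Mitogen-activated protein kinase (MAPK) phosphatases and Sprouty-family genes encode the proteins that switch MAPK signalling off, and 10 of them were followed here: *DUSP1*, *DUSP4*, *DUSP5*, *DUSP6*, *DUSP8*, *DUSP10*, *DUSP16*, *SPRY2*, *SPRY4* and *SPRED1*. They were chosen by symbol, through the Ensembl identifier of each row of the count tables, out of 62700 genes listed, and all 10 had enough counts to be tested in both tables. The choice was made with earlier results of these data known. How many of the 10 were called, beside the share of all genes, is therefore a description. In the MAPK cascades, growth factors and stress signals activate the kinases ERK, JNK and p38 by adding phosphate to a threonine and a tyrosine of the kinase. Dual-specificity phosphatases (DUSPs) remove both phosphates, and each DUSP prefers certain kinases and a certain compartment of the cell. Sprouty and Spred proteins act higher up, between receptor tyrosine kinases, RAS and RAF, and many genes of these families are themselves induced by ERK, so that they form a negative feedback.

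RNA was sequenced from 15 libraries of 143B, an established human osteosarcoma cell line, with 3 libraries in each of 5 groups. OSCs (osteosarcoma stem cells) were 143B cells kept under tumorsphere conditions, in DMEM/F12 with B27, EGF and basic FGF, and non-OSCs were the same line grown adherent in DMEM with fetal bovine serum. The other groups were OSCs infected with a lentiviral control vector (shCtrl) or with either of 2 short hairpin RNAs against *PDK1*, a kinase that inactivates pyruvate dehydrogenase (sh*PDK1*#1 and sh*PDK1*#2). OSC and non-OSC are thus defined by culture. Between them differ format, base medium, serum, B27, GlutaMAX, the sodium pyruvate added to the adherent medium, and the added EGF and FGF, which activate the ERK cascade. These differ together and cannot be told apart. The labels do not say whether the 3 libraries of a group came from separate cultures, so p-values measure the spread between these libraries, which may be technical. In bulk RNA, fewer cells of a type and less RNA per cell cannot be told apart.

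Counts summed to between 7992534 and 10495088 per library in the OSC and non-OSC table and to between 8073103 and 11256578 in the shRNA table. The targeted gene *PDK1* was at 46.7, 44.7 and 44.4 CPM (counts scaled to a common library size with the TMM method) with shCtrl, 29, 27.8 and 27.3 CPM with sh*PDK1*#1 and 18.3, 21.5 and 19.6 CPM with sh*PDK1*#2, which is 62% and 43.7% of the control mean. The stem cell markers that the study used, *SOX2*, *KLF4* and *ABCG1*, summed to between 85.5 and 99.4 CPM in OSCs and to between 24.7 and 30.0 CPM in non-OSCs. All 3 rose in OSCs, 0 were called with sh*PDK1*#1 and 1 fell with sh*PDK1*#2, *ABCG1*. Of the osteoblast lineage markers, *COL1A1*, *SPP1* and *RUNX2* had at least 128 counts in every library, whereas *IBSP* had 0 counts in all 15 libraries and *SP7* and *BGLAP* at most 1 and 7. *COL1A1* and *SPP1* rose and *RUNX2* fell in OSCs, *COL1A1* rose with sh*PDK1*#1, and *COL1A1* and *SPP1* rose with sh*PDK1*#2. Among the markers of other cell types, *PTPRC*, *CD3D*, *CDH1* and *VWF* had at most 4 counts in any library. The epithelial keratin *KRT18* was present throughout, and the 12 markers together summed to between 1008 and 1143 CPM in non-OSCs, 373 and 379 CPM in OSCs, 378 and 405 CPM with shCtrl, 402 and 429.9 CPM with sh*PDK1*#1 and 452 and 476 CPM with sh*PDK1*#2. *KRT18*, with means of 1044 CPM in non-OSCs and 271 CPM in OSCs, made up most of these sums. Without it and *MMP9* the 10 other markers summed to 11.5 to 13.9 CPM in the non-OSC libraries and 32.5 to 36 CPM in the OSC libraries, and to 27 to 31.7 CPM with shCtrl, 25.8 to 26.2 CPM with sh*PDK1*#1 and 24.1 to 27.9 CPM with sh*PDK1*#2. Of the 12 markers, *ACTA2* (4.37 and 21.6 CPM in non-OSCs and OSCs), *CTSK* (1.82 and 8.17 CPM) and *MMP9* (26.7 and 70.3 CPM) were higher in OSCs and *KRT18* and *CD14* lower, and with each hairpin *KRT18* was higher and *MMP9* lower than with shCtrl. Their part in the differences below was not tested.

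The comparison of OSCs with non-OSCs asked how the line changes when it is brought into tumorsphere conditions. In edgeR's quasi-likelihood test, adjusted by the Benjamini-Hochberg method over the 14288 genes tested, all 10 genes differed at the 0.05 threshold, beside 63.9% of all genes. Among them 7 were higher in OSCs, beside 32.4% of all genes, and 3 were lower, beside 31.5%. The libraries of OSCs and non-OSCs did not overlap for 9 of the 10, beside 66.9% of all genes. The median log2 fold change of the 10 genes was 0.83, and that of all genes tested was -0.01. *DUSP8* is among the genes that the study picked from these same libraries, for a rise in OSCs and a fall with each hairpin. Its own values are therefore given as a description, without a test. The main counts of each comparison are also given without it, while counts from alternative fits include it. Without *DUSP8*, 9 of 9 genes differed, 6 higher and 3 lower, with a median of 0.38, and the libraries did not overlap for 8 of the 9.

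**Figure D1:**
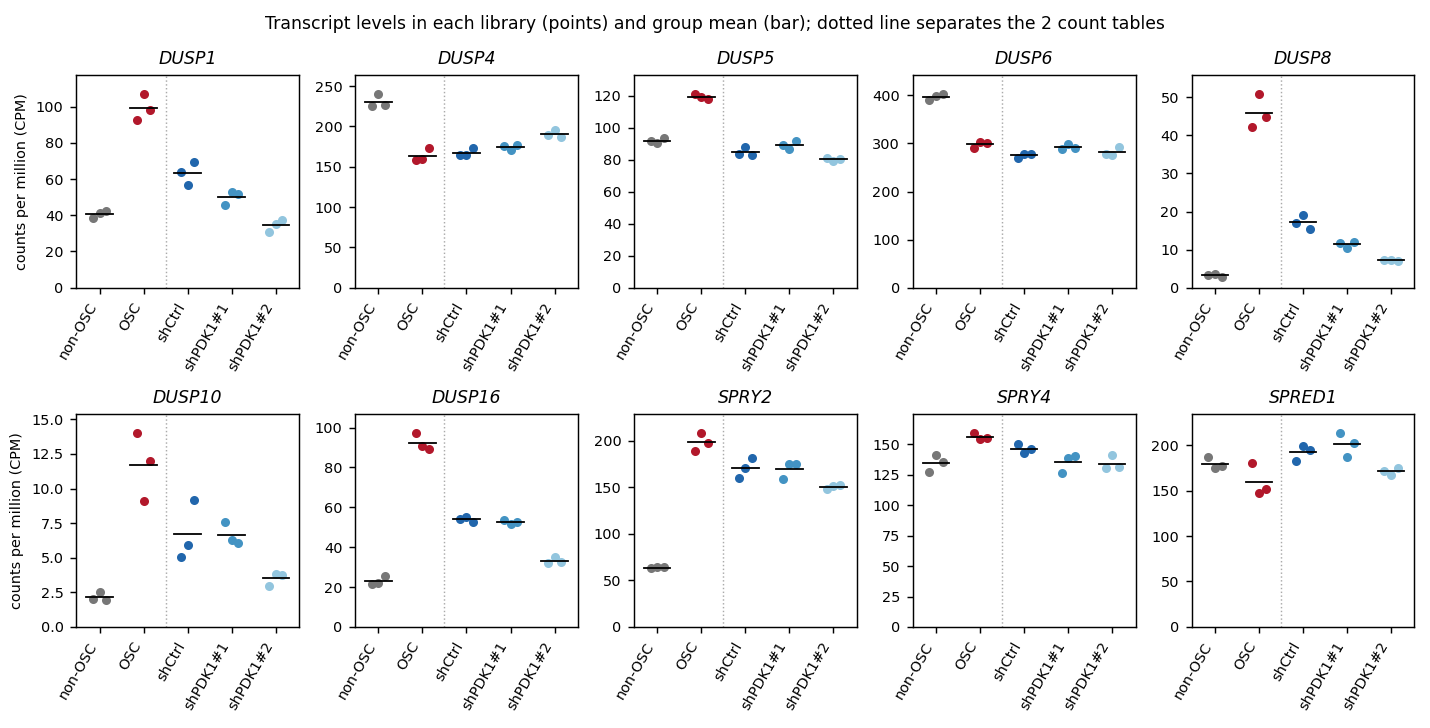
TMM-normalized CPM of each of the 10 genes in the 15 libraries (points) of the 5 groups, with group means as bars; each y axis starts at 0 and has its own range, and the dotted line separates the tables, which were normalized separately. *DUSP8* lies between 2.75 and 3.72 CPM in non-OSCs and between 42.1 and 50.9 CPM in OSCs, and *DUSP1*, *DUSP8*, *DUSP10* and *DUSP16* are lower with sh*PDK1*#2 than with sh*PDK1*#1 in every library.

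*DUSP8*, *DUSP10* and *DUSP16* encode phosphatases that act mainly on the stress kinases JNK and p38, and these 3 genes had the largest log2 fold changes of the 10. *DUSP8* (chr11:1554051-1572271, minus strand, GRCh38) was at 3.28, 3.72 and 2.75 CPM in the non-OSC libraries and at 42.1, 50.9 and 44.9 CPM in the OSC libraries. The counts behind these values were 34, 34 and 25 in non-OSCs and 342, 503 and 372 in OSCs. The groups lay far apart, with a mean 14.1-fold higher in OSCs and a log2 fold change of 3.82 ± 0.139 (SE). *DUSP16* (chr12:12473282-12562863, minus strand), whose product retains JNK in the cytoplasm, was at 21.6, 22.3 and 25.5 CPM in non-OSCs and at 97.2, 90.7 and 89.3 CPM in OSCs. It rose 4-fold, with a log2 fold change of 2.0 ± 0.0819 (SE) and an adjusted p of 5.37e-15 (edgeR), and every OSC library lay above every non-OSC library. *DUSP10* (chr1:221701424-221742089, minus strand) was the least expressed in CPM, at 2.03, 2.52 and 1.98 CPM in non-OSCs and at 14, 9.1 and 12 CPM in OSCs. It rose 5.38-fold (log2 fold change 2.42 ± 0.226, SE, adjusted p = 5.3e-09, edgeR), again without overlap, although only 18 to 23 counts per library stood behind the non-OSC values.

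The 250 bases upstream of the annotated starts of the 10 genes were looked up, to show whether they carry the cyclic AMP response element (CRE), the palindrome TGACGTCA that factors of the CREB and ATF family bind. RefSeq (GRCh38.p14) gave 11 such windows for 8 of the 10 genes, all but *DUSP4* and *DUSP5*. *DUSP8* and *DUSP1* are shown because they alone among these 8 genes had a full CRE, and *DUSP16* and *DUSP10* because they also rose in OSCs but had none. Capitals mark the CRE or its shorter form TGACG on either strand, and each full CRE holds that shorter form on both strands.
DUSP8: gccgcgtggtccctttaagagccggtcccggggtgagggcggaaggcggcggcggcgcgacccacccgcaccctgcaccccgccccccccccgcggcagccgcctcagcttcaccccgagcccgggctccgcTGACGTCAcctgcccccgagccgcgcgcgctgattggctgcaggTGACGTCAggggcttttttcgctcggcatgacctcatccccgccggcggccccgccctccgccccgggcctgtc
DUSP1: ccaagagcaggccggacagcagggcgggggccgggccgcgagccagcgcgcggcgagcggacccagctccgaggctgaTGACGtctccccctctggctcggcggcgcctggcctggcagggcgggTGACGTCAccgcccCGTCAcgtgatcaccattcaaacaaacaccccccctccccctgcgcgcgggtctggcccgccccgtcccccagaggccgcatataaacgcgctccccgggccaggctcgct
DUSP16: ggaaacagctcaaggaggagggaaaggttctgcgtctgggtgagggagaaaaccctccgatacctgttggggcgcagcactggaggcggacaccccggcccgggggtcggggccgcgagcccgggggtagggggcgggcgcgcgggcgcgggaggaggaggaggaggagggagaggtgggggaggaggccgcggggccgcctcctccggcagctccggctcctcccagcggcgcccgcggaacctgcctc
DUSP10: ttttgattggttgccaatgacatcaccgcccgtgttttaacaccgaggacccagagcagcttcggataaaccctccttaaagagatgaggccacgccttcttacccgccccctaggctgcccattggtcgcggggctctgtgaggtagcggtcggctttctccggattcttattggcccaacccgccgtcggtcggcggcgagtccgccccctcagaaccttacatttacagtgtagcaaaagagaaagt
The *DUSP8* window (chr11:1572272-1572521, minus strand) held 2 CREs, and the *DUSP1* window (chr5:172771196-172771445, minus strand) held 1 CRE and 2 further short forms. The *DUSP16* window (chr12:12562864-12563113) and the *DUSP10* window shown (chr1:221742090-221742339), both on the minus strand, held neither form. Over all 35116 windows of this table, 1.65% held at least 1 CRE, 0.0541% held 2 or more and 21.2% held TGACG. *SPRY2* and *SPRY4* each had 1 window with the short form. The AP-1 site TGANTCA, in 6.57% of all windows, and the CArG box, in 1.16%, were in none of the 11 windows on either strand. Of the sequences that ETS factors bind, only CCGGAA was searched, so shorter or other forms may be present. CCGGAA, in 14.5% of all windows, was found once, in *SPRY2*, and the TATA box TATAAA, in 10.7%, once, in *DUSP1*. A match describes these letters and is not a measured binding site.

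Of the remaining DUSPs, *DUSP1* and *DUSP5* rose in OSCs, and *DUSP4* and *DUSP6* fell. *DUSP1* encodes MKP-1, an immediate early nuclear phosphatase that acts on JNK, p38 and ERK. It was at 38.3, 41.5 and 42.2 CPM in non-OSCs and at 92.4, 107 and 98.2 CPM in OSCs, a rise of 2.44-fold (log2 fold change 1.29 ± 0.0747, SE, adjusted p = 1.83e-12, edgeR). The groups did not overlap. *DUSP5*, which encodes a nuclear phosphatase specific for ERK, was at 91.4, 90.1 and 93.6 CPM in non-OSCs and at 121, 119 and 118 CPM in OSCs. Its rise was small (log2 fold change 0.38 ± 0.0567, SE, adjusted p = 5.45e-06, edgeR), but the lowest OSC library was above the highest non-OSC library.

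*DUSP6* encodes MKP-3, the cytoplasmic phosphatase for ERK, and is a widely used readout of ERK activity. It was at 389.9, 399 and 403 CPM in non-OSCs and at 289.9, 304 and 301 CPM in OSCs, so that OSCs were at 75.1% of non-OSCs (log2 fold change -0.41 ± 0.0432, SE, adjusted p = 3.01e-08, edgeR). An antisense gene covers 28.6% of its exons, and whether the counting used strand is not given in the sources used here, but that gene had no more than 1.64% of the counts of *DUSP6* in any group. *DUSP4*, whose product MKP-2 is nuclear and induced by ERK, was at 225, 240.4 and 227 CPM in non-OSCs and at 159, 159.6 and 173 CPM in OSCs (log2 fold change -0.50 ± 0.0521, SE, adjusted p = 3.31e-08, edgeR). For both genes every OSC library lay below every non-OSC library.

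The Sprouty and Spred genes split as well. *SPRY2*, an inhibitor of receptor tyrosine kinase signalling to RAS, was at 63.2, 63.9 and 63.9 CPM in non-OSCs and at 189, 208 and 198 CPM in OSCs. This rise of 3.11-fold (log2 fold change 1.64 ± 0.0579, SE, adjusted p = 4.91e-16, edgeR) was, among the 10 genes, the largest outside the JNK and p38 phosphatases. *SPRY4* was at 127, 141 and 135 CPM in non-OSCs and at 159, 154 and 155 CPM in OSCs, with a log2 fold change of 0.21 ± 0.0548 (SE) and an adjusted p of 0.00193 (edgeR). *SPRED1*, which brings the RAS inhibitor neurofibromin to the membrane, was at 187, 175 and 177 CPM in non-OSCs and at 180.0, 147 and 152 CPM in OSCs. Its groups overlapped, and its lower value in OSCs (log2 fold change -0.17 ± 0.0641, SE, adjusted p = 0.0238, edgeR) did not hold in every alternative. The adjusted p was 0.0767 with library size alone, 0.0545 without non-OSC replicate 1, 0.198 without OSC replicate 2 and 0.137 without OSC replicate 3.

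**Figure D2:**
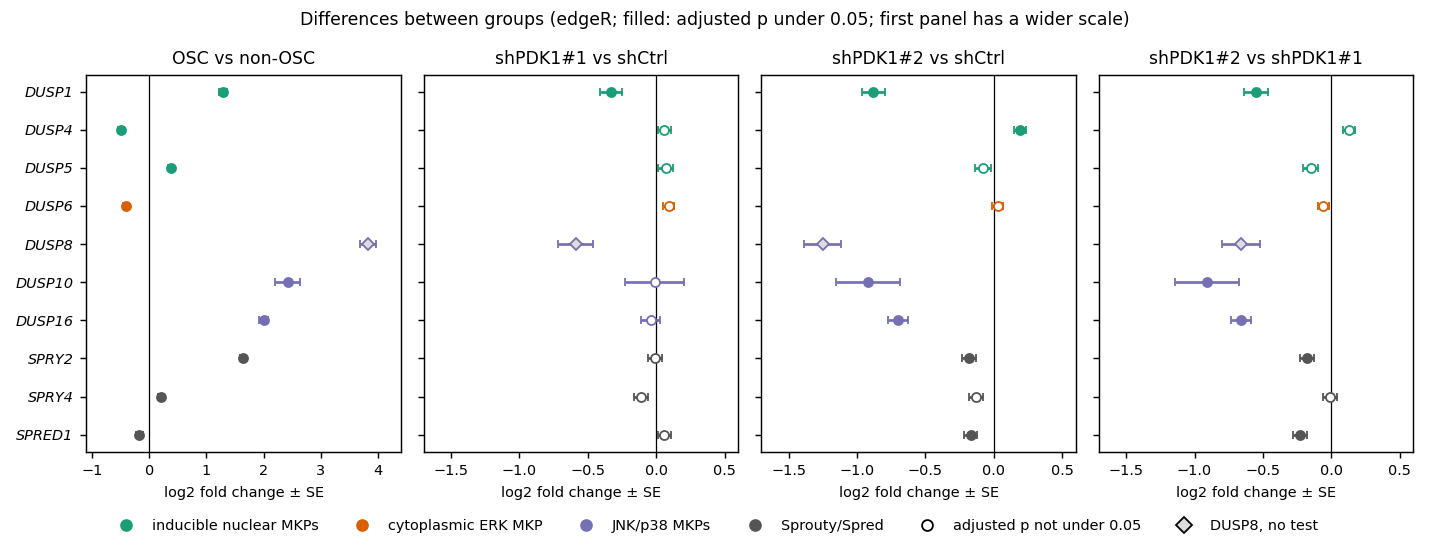
Log2 fold change ± SE (x axis) of each of the 10 genes (y axis) in the 4 comparisons, coloured by role; filled points have an adjusted p under 0.05 in edgeR's test, open points do not, the diamond is *DUSP8*, given without a test, and the OSC panel has a wider scale. In the OSC panel *DUSP8*, *DUSP10* and *DUSP16* are furthest right, at 3.82, 2.42 and 2.0, and with sh*PDK1*#2 the same genes and *DUSP1* lie between -1.25 and -0.70 while the others stay within 0.19 of 0.

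The hairpin libraries asked which of these genes depend on *PDK1* in OSCs. With sh*PDK1*#1, 2 of the 10 genes were called, both lower, beside 3.06% of the 14597 genes tested called in either direction, 1.44% lower and 1.62% higher. The libraries did not overlap for 4 of the 10, beside 19.3% of all genes. With sh*PDK1*#2, 7 of the 10 were called, 6 lower and 1 higher, beside 26.1% of all genes in either direction, 14.2% lower and 11.9% higher, and 9 of the 10 did not overlap, beside 39.5%. Leaving out *DUSP8*, the called genes were 1 of 9 with sh*PDK1*#1 and 6 of 9 with sh*PDK1*#2. The libraries did not overlap for 3 and 8 of these 9. The median log2 fold change of the 10 genes was -0.01 with sh*PDK1*#1 and -0.18 with sh*PDK1*#2, where all genes tested had medians of 0.00 and 0.01. Without *DUSP8* the medians were -0.01 and -0.17. These comparisons share the 3 shCtrl libraries, so the values of each gene below are given side by side. Without shCtrl replicate 3, 4 of the 10 were called with sh*PDK1*#2, where *DUSP10*, *SPRY2* and *SPRED1* lost their calls. With sh*PDK1*#1 1 was called, as *DUSP1* lost its call, and that 1 was *DUSP8*, which the study picked for this fall. The count over all genes in that fit is not given here, so a loss in these 10 cannot be told apart from a loss over all genes.

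*DUSP8* was at 17, 19.1 and 15.5 CPM with shCtrl, 11.7, 10.5 and 12.1 CPM with sh*PDK1*#1 and 7.36, 7.28 and 7.08 CPM with sh*PDK1*#2. The 3 groups did not overlap, and the means with the hairpins were 66.5% and 42.1% of the control mean (log2 fold changes of -0.59 ± 0.128 and -1.25 ± 0.135, SE). *DUSP16* was at 54.3, 55.3 and 52.7 CPM with shCtrl, 53.7, 51.5 and 52.5 CPM with sh*PDK1*#1 and 32.1, 35 and 32.7 CPM with sh*PDK1*#2. Its libraries with sh*PDK1*#1 mixed with the controls (log2 fold change -0.04 ± 0.0689, SE, adjusted p = 0.854, edgeR), whereas with sh*PDK1*#2 it fell to 61.5% (log2 fold change -0.70 ± 0.0722, SE, adjusted p = 3.31e-08, edgeR). *DUSP10* was at 5.04, 5.92 and 9.19 CPM with shCtrl, 7.59, 6.28 and 6.07 CPM with sh*PDK1*#1 and 2.98, 3.84 and 3.75 CPM with sh*PDK1*#2. One control library stood above the other two, and with sh*PDK1*#2 all libraries were below all controls (log2 fold change -0.92 ± 0.233, SE, adjusted p = 0.00417, edgeR). Without shCtrl replicate 3 that adjusted p was 0.0586. With sh*PDK1*#1 its log2 fold change was -0.01 ± 0.216 (SE, adjusted p = 0.991, edgeR), an error too wide to show a small change.

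*DUSP1* was at 63.8, 56.7 and 69.3 CPM with shCtrl, 45.8, 53.1 and 51.5 CPM with sh*PDK1*#1 and 30.7, 35.3 and 37.4 CPM with sh*PDK1*#2. Like those of *DUSP8*, its 3 groups lay one below the other without overlap. It fell to 54.5% of control with sh*PDK1*#2 (log2 fold change -0.88 ± 0.0866, SE, adjusted p = 1.74e-08, edgeR) and to 79.2% with sh*PDK1*#1 (log2 fold change -0.33 ± 0.0832, SE, adjusted p = 0.0255, edgeR). The call with sh*PDK1*#1 was lost without shCtrl replicate 1 or 3 and without sh*PDK1*#1 replicate 1 or 3, where the adjusted p lay between 0.073 and 0.181.

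*DUSP4*, *DUSP5* and *DUSP6* stayed closer to control. *DUSP4* was at 165, 165 and 173 CPM with shCtrl, 176, 171 and 177 CPM with sh*PDK1*#1 and 189, 196 and 187 CPM with sh*PDK1*#2, and it was the only one of the 10 called higher with a hairpin (sh*PDK1*#2, log2 fold change 0.19 ± 0.0447, SE, adjusted p = 0.00271, edgeR). *DUSP6* was at 269, 278 and 279 CPM with shCtrl, 288, 299 and 290.1 CPM with sh*PDK1*#1 and 277, 275 and 292 CPM with sh*PDK1*#2. Neither hairpin's difference passed the test for *DUSP6* (log2 fold changes 0.09 ± 0.0405 and 0.03 ± 0.0405, SE, adjusted p = 0.311 and 0.631, edgeR). *DUSP5* did not pass either, with log2 fold changes of 0.07 ± 0.056 and -0.08 ± 0.0563 (SE, adjusted p = 0.626 and 0.311, edgeR).

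Among the Sprouty and Spred genes, *SPRY2* was at 160.2, 171 and 181 CPM with shCtrl, 159, 175 and 175 CPM with sh*PDK1*#1 and 148, 151 and 152 CPM with sh*PDK1*#2. Only the libraries with sh*PDK1*#2 were all below the controls (log2 fold change -0.18 ± 0.0516, SE, adjusted p = 0.0099, edgeR, and 0.0857 without shCtrl replicate 3). *SPRED1* was lower with sh*PDK1*#2 by a like amount (log2 fold change -0.17 ± 0.0504, SE, adjusted p = 0.0137, edgeR), a call lost without shCtrl replicate 2 or 3 or sh*PDK1*#2 replicate 2, with adjusted p between 0.0502 and 0.0893. *SPRY4* had log2 fold changes of -0.11 ± 0.0521 with sh*PDK1*#1 and -0.13 ± 0.0518 with sh*PDK1*#2 (SE, adjusted p = 0.306 and 0.0776, edgeR).

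The hairpins were also compared with each other. With sh*PDK1*#2, 6 of the 10 genes were lower than with sh*PDK1*#1 and 0 higher (5 of 9 lower without *DUSP8*). Over all genes 16.3% were called, 9.78% lower and 6.47% higher. The libraries did not overlap for 8 of the 10 (7 of 9 without *DUSP8*), beside 30.7% of all genes. *DUSP16* differed by a log2 fold change of -0.66 ± 0.0721 (SE, adjusted p = 2.06e-07, edgeR), *DUSP1* by -0.55 ± 0.0882 (SE, adjusted p = 5.77e-05, edgeR) and *DUSP10* by -0.91 ± 0.232 (SE, adjusted p = 0.00708, edgeR). *SPRED1* and *SPRY2* differed less, by -0.23 ± 0.05 and -0.18 ± 0.0514 (SE, adjusted p = 0.00175 and 0.0185, edgeR), and the *SPRY2* call was lost in 3 of the 12 alternatives. *DUSP8* was at 63.3% of its sh*PDK1*#1 mean, with a log2 fold change of -0.66 ± 0.142 (SE). *PDK1* itself was lower with sh*PDK1*#2 than with sh*PDK1*#1 (log2 fold change -0.50 ± 0.0908, SE, adjusted p = 0.000237, edgeR), and whether that difference accounts for these was not tested.

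**Figure D3:**
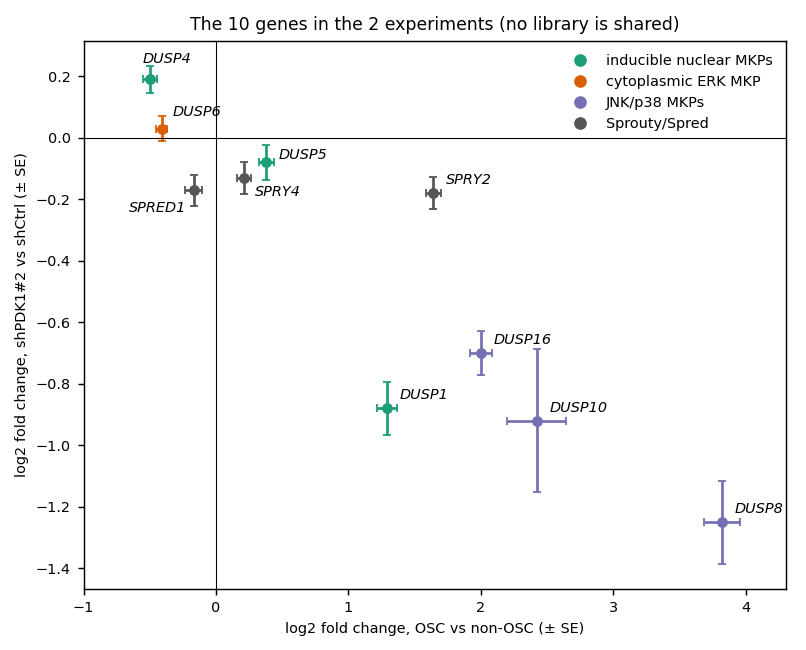
Log2 fold change ± SE between OSCs and non-OSCs (x axis) and between sh*PDK1*#2 and shCtrl (y axis) for the 10 genes, coloured by role; the comparisons share no library. *DUSP8*, which the study chose for this pattern, lies at 3.82 and -1.25, *DUSP1*, *DUSP10* and *DUSP16* lie between 1.29 and 2.42 and between -0.92 and -0.70, and *DUSP4* and *DUSP6* are lower in OSCs.

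The JNK and p38 phosphatases offer the closest relatives to set beside *DUSP8*. The ratio of *DUSP8* to *DUSP16* within a library was taken on the log2 scale with a prior count of 2. Scaling by library size cancels in this ratio except through the prior count, which draws ratios of low counts toward 0. The ratio was -2.64, -2.52 and -3.11 in non-OSCs and -1.20, -0.83 and -0.99 in OSCs, a difference of 1.75 with every OSC library above every non-OSC library. It was -1.66, -1.53 and -1.75 with shCtrl, -2.18, -2.28 and -2.09 with sh*PDK1*#1 and -2.10, -2.23 and -2.17 with sh*PDK1*#2. The libraries with either hairpin lay below all controls (differences of -0.54 and -0.52), while the hairpins overlapped each other and differed by 0.02. *DUSP8* and *DUSP16* had the same log2 fold change, -0.66, between the hairpins. Since *DUSP8* was chosen for its differences between these groups, its ratios are a description, and no test of them is given.

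**Figure D4:**
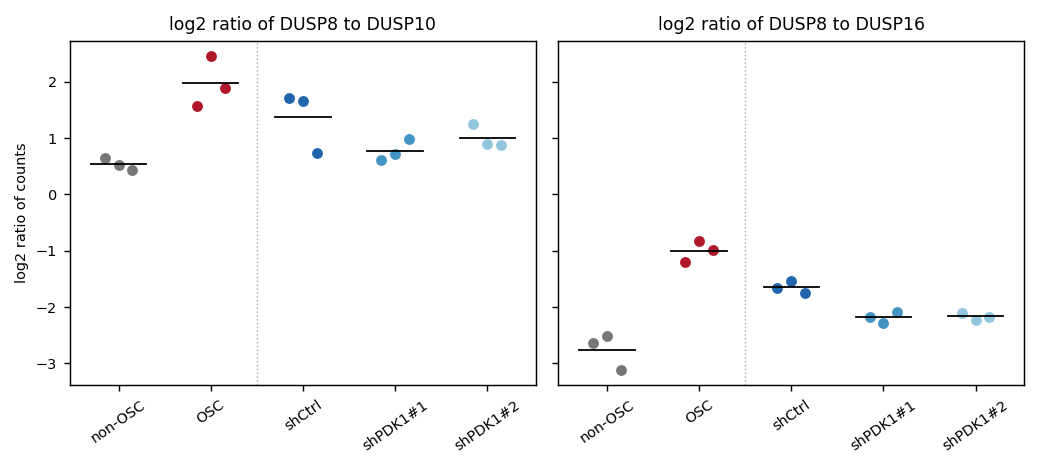
Log2 ratio (y axis) of *DUSP8* to *DUSP10* and to *DUSP16* in each library (points) of the 5 groups, with group means as bars. The ratio to *DUSP16* is higher in OSCs than in non-OSCs, means of -1.01 and -2.76, and lower with both hairpins, -2.18 and -2.17, than with shCtrl, -1.65.

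The ratio of *DUSP8* to *DUSP10* had means of 0.53 ± 0.10 in non-OSCs and 1.97 ± 0.45 in OSCs (SD, n = 3), a difference of 1.44 without overlap. With the hairpins it overlapped the controls, at 1.37 ± 0.54 with shCtrl, 0.77 ± 0.19 with sh*PDK1*#1 and 1.0 ± 0.21 with sh*PDK1*#2 (SD, n = 3). The control library with the highest *DUSP10* had a ratio of 0.74 where the other controls had 1.71 and 1.65.

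Levels of different genes were compared as CPM per kilobase of exon. *DUSP6* was the highest of the 10 in all 5 groups, at 103 ± 1.74 in non-OSCs and 77.3 ± 1.91 CPM per kilobase in OSCs (SD, n = 3), and it did not overlap the next gene in any group. In non-OSCs *DUSP5* (36.2), *DUSP4* (31.7) and *SPRED1* (23.2) followed, and *SPRY4*, *DUSP1* and *SPRY2* lay between 19.8 and 20.5 CPM per kilobase, with *SPRY4* overlapping *DUSP1* and *DUSP1* overlapping *SPRY2*. In OSCs *SPRY2* (61.7) and *DUSP1* (49.3) moved to ranks 2 and 3, ahead of *DUSP5* (47), which overlapped *DUSP1*. *DUSP8*, *DUSP10* and *DUSP16* held the 3 lowest ranks in every group. *DUSP8* was at 0.656 ± 0.0976 CPM per kilobase in non-OSCs, the lowest of all and overlapping *DUSP10* at 0.769 ± 0.105, and at 9.27 ± 0.901 in OSCs, apart from *DUSP10* at 4.14 ± 0.877 and from *DUSP16* at 13 ± 0.591 (SD, n = 3).

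**Figure D5:**
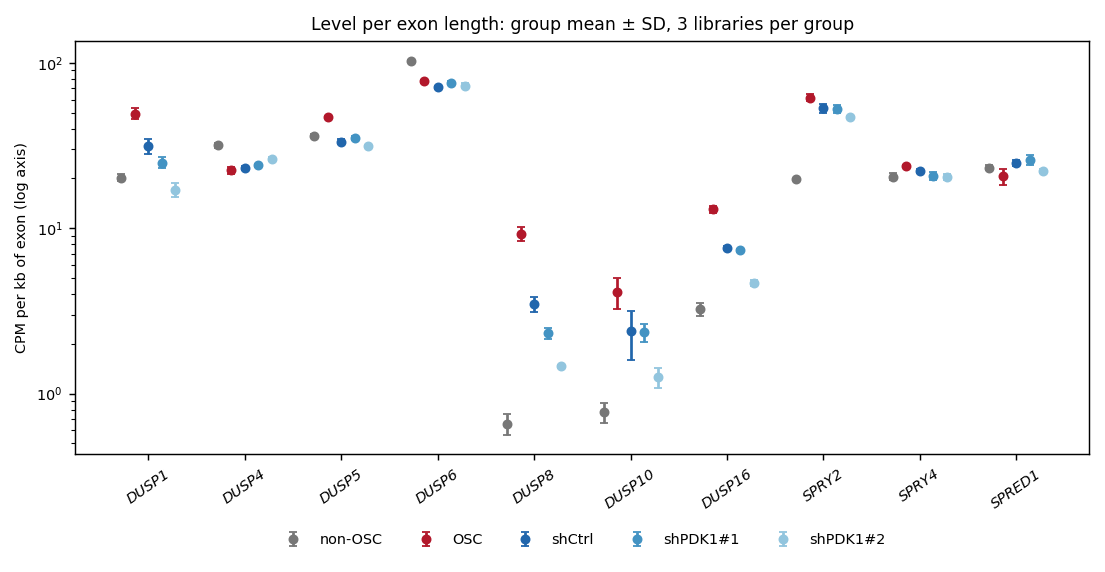
Mean CPM per kilobase of exon ± SD (y axis, log scale, n = 3 libraries) of the 10 genes in the 5 groups; the tables were normalized separately. *DUSP6* is highest in every group, and *DUSP8*, *DUSP10* and *DUSP16* are lowest in every group, with *DUSP8* between 0.656 in non-OSCs and 9.27 in OSCs.

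The uninfected OSC and the shCtrl libraries were both grown under tumorsphere conditions, but they come from tables normalized separately, so their mean CPM are given side by side without a test. *DUSP8* was at 46 CPM in OSCs and 17.2 with shCtrl, *DUSP16* at 92.4 and 54.1, and *DUSP10* at 11.7 and 6.72. *DUSP1* was at 99.3 and 63.3 CPM and *DUSP5* at 119 and 84.7. *SPRY2* was at 198 and 171 CPM, *DUSP6* at 298 and 275 and *SPRY4* at 156 and 146, whereas *DUSP4*, at 164 and 168, and *SPRED1*, at 159.8 and 192, were not lower with shCtrl. The lower values with shCtrl were thus not limited to the JNK and p38 phosphatases.

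Genes whose pattern was most like that of *DUSP8* were ranked by the Euclidean distance between their log2 fold changes in OSCs against non-OSCs and with each hairpin against shCtrl, over 11242 genes of at least 5 CPM. The nearest was *C11orf96*, another gene the study picked by this pattern, with log2 fold changes of 3.79, -0.58 and -1.30. It was followed by *FOS* (3.61, -0.33 and -1.30), *JUND* (3.36, -0.30 and -1.12), *L1CAM* (3.83, -0.12 and -0.90) and *ELMOD1* (3.32, -0.69 and -1.55). Of the other 9 genes followed here, *DUSP10* ranked 72 and *DUSP16* 141, then *SPRY2* at 331 and *DUSP1* at 372, and the other 5 ranked between 3093 and 9295. This ordering describes 3 log2 fold changes from 15 libraries and was not tested.

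The rest of the families and of the pathway did not follow one direction, and the counts below stand beside the 63.9% of all genes called in OSCs, 3.06% with sh*PDK1*#1 and 26.1% with sh*PDK1*#2. Of the other MAPK phosphatases, the ERK-directed *DUSP7* and *DUSP9* fell in OSCs (log2 fold changes -0.72 ± 0.0836 and -0.57 ± 0.0936, SE), and *DUSP2* did not pass, while with the hairpins 0 of these 3 were called. Of the other Sprouty and Spred genes, 3 of 4 rose in OSCs, among them *SPRY1* (log2 fold change 1.71 ± 0.14, SE) and *SPRED3* (0.80 ± 0.145, SE), with a median of 0.58 over the 4. With sh*PDK1*#1 0 of the 4 were called and with sh*PDK1*#2 1 was, *SPRY1*, which rose by a log2 fold change of 0.30 ± 0.112 (SE, adjusted p = 0.0498, edgeR), where *SPRY2* fell. Of 7 other negative regulators of RAS and receptor signalling, 5 rose and 1 fell in OSCs, led by *ERRFI1* (1.66 ± 0.0363, SE), an inhibitor of the EGF receptor, while 1 rose with sh*PDK1*#1 and 2 fell with sh*PDK1*#2, *RASA2* and *CBL*.

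Upstream, 6 of 7 growth factor receptors were tested, all but *ERBB3*. In OSCs 2 rose (*FGFR3*, 1.39 ± 0.218, and *FGFR1*, 0.51 ± 0.0534, log2 fold change ± SE) and 3 fell, among them *EGFR* (-0.41 ± 0.0415), while 0 were called with sh*PDK1*#1 and 2 rose with sh*PDK1*#2. Of 13 genes of the RAS to ERK cascade 7 rose and 1 fell in OSCs, with a median log2 fold change of 0.18, a called share close to that of all genes, and 4 fell with sh*PDK1*#2, among them *BRAF* (-0.68 ± 0.108, SE), which was also the 1 gene of this list that fell with sh*PDK1*#1 (-0.49 ± 0.107, SE). In the JNK cascade, the target of *DUSP8*, *DUSP10* and *DUSP16*, 3 of 10 genes rose and 1 fell in OSCs, with a median of 0.14, 0 were called with sh*PDK1*#1, and with sh*PDK1*#2 2 rose (*MAP3K1*, 0.73 ± 0.0997, and *MAP3K5*, 0.53 ± 0.0976, SE) and 1 fell, the scaffold *MAPK8IP1* (-0.70 ± 0.113, SE). In the p38 and ERK5 cascades 4 of 10 rose and 3 fell in OSCs, 0 were called with sh*PDK1*#1 and 2 fell with sh*PDK1*#2.

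Target genes of ERK moved in both directions. In OSCs 7 of 12 rose and 2 fell, with a median log2 fold change of 0.31. *FOS* (3.61 ± 0.104, SE), an immediate early transcription factor, and *IER3* (1.63 ± 0.0424, SE) rose most, and *EPHA2* (-1.69 ± 0.0663, SE) and *FOSL1* (-0.92 ± 0.0472, SE) fell. With sh*PDK1*#2 6 of the 12 fell, led by *FOS* (-1.30 ± 0.0806, SE) and *EGR1* (-0.63 ± 0.0605, SE), and 1 rose, *ETV4* (0.23 ± 0.0533, SE). With sh*PDK1*#1 4 of the 12 fell and 1 rose, *IER3*.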

How the data were processed

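Libraries were made with the NEBNext Ultra RNA kit. Per the submitters' processing notes, the authors used Trimmomatic 0.39, FastQC 0.12.1, STAR 2.7.11a and RSEM 1.3.3 with the GRCh38.p14 genome, and deposited one expected count per gene and library, without normalization, in one table for OSCs and non-OSCs and another for the shRNA libraries. The annotation and strandedness are not given in the sources used here. RSEM divides reads between matching transcripts, so 6.85% and 6.92% of values were not whole, and expected counts were rounded. Columns named S2D, S3D and con were read as the non-OSC, OSC and shCtrl libraries, and 0 columns of values were left unmapped. All identifiers were found in GENCODE 44.

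Counts were tested with edgeR 4.0.16 in R 4.3.3 (TMM, filterByExpr, quasi-likelihood test, Benjamini-Hochberg adjustment over all genes tested, threshold 0.05), the tables separately and the 9 shRNA libraries in one fit. CPM used TMM library sizes. Depth limits the precision of low genes: 3 counts in a library were at most 0.375 CPM. Figures and ratios used Python 3.11.15. The test was checked on simulated counts. Pairs of replicates differed by more than sampling noise. Alternatives were DESeq2 1.42.0, library size alone, no filter, a minimum of 10 counts per library, the replicate number as a block, only the groups of a contrast, a prior count of 0.5, the longest transcript as length, and each library left out in turn.

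The 10 genes and all lists were chosen with earlier results of these data known. Named genes were these 10, *PDK1*, *MYC*, the 5 nearest to *DUSP8*, and from each list up to 2 of the largest changes per direction past the threshold at a mean of at least 5 CPM. Of those, the ones with most bearing on the text are given. Promoters are from RefSeq, searched on both strands. One marker gene of the osteoblast list is not reported here. Exact permutation tests of the *DUSP8* ratios were planned and run, but their p-values are not given, because *DUSP8* was chosen on these libraries.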

Additional observations from a re-analysis of the deposited data

Results flagged for a closer look

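For 6 of the 10 genes, *DUSP8* among them, sh*PDK1*#1 and sh*PDK1*#2 had unequal effects, by the direct contrast of sh*PDK1*#2 with sh*PDK1*#1 in edgeR's quasi-likelihood test. Without *DUSP8* these were 5 of 9, and over all genes 16.3% were called, 9.78% lower and 6.47% higher. The log2 fold changes were -0.55 for *DUSP1*, -0.66 for *DUSP8*, -0.91 for *DUSP10*, -0.66 for *DUSP16*, -0.18 for *SPRY2* and -0.23 for *SPRED1*. *DUSP8* was picked by the study with these libraries, so its value is a description. For *DUSP10* the control libraries spread from 5.04 to 9.19 CPM. They do not enter its log2 fold change between the hairpins, but they do enter the spread, which was estimated over all 9 libraries, and hence its error and adjusted p.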

How the results depend on the processing

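Of 471 alternative values for the 10 genes in 4 comparisons, 448 kept the side of the threshold, 17 lost the call, 6 gained one and 0 reversed a call, although the uncalled values of *DUSP10* and *SPRY2* with sh*PDK1*#1 and of *SPRY4* between the hairpins, all near 0, changed sign in some. These 23 changes fell on 10 of 40 results, and those that lost a call are given above, except that *DUSP8* left the count of genes lower with sh*PDK1*#1 without shCtrl replicate 2 (log2 fold change -0.51). Gained were *SPRY4* with sh*PDK1*#2 (adjusted p = 0.0419 with only the groups of the contrast and 0.0394 without sh*PDK1*#2 replicate 2), and between the hairpins *DUSP5* without sh*PDK1*#1 replicate 2 (adjusted p = 0.0425) and *DUSP4* (adjusted p between 0.0354 and 0.049 by edgeR and DESeq2). When single libraries were left out, the genes called with sh*PDK1*#1 numbered 245 to 508 over all genes and 1 to 2 among the 10. With sh*PDK1*#2 4 to 7 of the 10 were called, and the matching range over all genes is not given here. The ratio of *DUSP8* to *DUSP16* between the hairpins, at 0.02, moved between -0.03 and 0.06 and so changed sign, at -0.02 without sh*PDK1*#2 replicate 1 and -0.03 without sh*PDK1*#1 replicate 2. The causes were not tested. In deviations from the group means, same-numbered OSC and non-OSC libraries correlated between -0.00917 and 0.0732, and those of other numbers between -0.0757 and 0.0225. In the shRNA libraries these ranges were -0.0522 to 0.0949 and -0.0536 to 0.0469. Correlations this small do not settle whether the numbers pair the libraries. A replicate block called 9423 genes in OSCs, 507 with sh*PDK1*#1, 3944 with sh*PDK1*#2 and 2512 between the hairpins, and 10, 2, 7 and 7 of the 10, and changed no call but that of *DUSP4* between the hairpins, which it gained. Counting the antisense gene with *DUSP6*, an alternative chosen after seeing the data, left its log2 fold change in OSCs at -0.42. Levels per kilobase of the longest transcript moved by more than 1 SD in 31 of the means of the 10 genes in the 5 groups, which is most of them. Neighbours in the order exchanged places, such as *DUSP5* and *DUSP4* in non-OSCs, while *DUSP6* stayed highest. At 18 to 23 counts per library in non-OSCs, *DUSP10* is the least precise of the 10.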
